A study of Homo sapiens with 4 samples.

Results

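KRAB zinc finger proteins silence transposable elements, imprinted loci and many of their own genes through a shared set of cofactors. TRIM28 is the scaffold that the KRAB domain recruits, and it brings in SETDB1, an enzyme that trimethylates histone H3 at lysine 9 (H3K9). ATF7IP binds SETDB1 and protects it from degradation. The HP1 proteins, which are encoded by CBX1 (HP1 beta), CBX3 (HP1 gamma) and CBX5 (HP1 alpha), bind methylated H3K9 and compact chromatin. The HUSH complex, which is built on FAM208A (also called TASOR) with the chromodomain protein MPHOSPH8 and the RNA-binding protein PPHLN1, spreads the mark over long transcribed elements with the ATPase MORC2. These 10 genes were chosen by name, and all 10 of them are among the 18806 genes of the deposited table and the 11971 genes tested.

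RNA was sequenced from Huh7, a human hepatocellular carcinoma line, in 2 libraries with a non-targeting guide (sgNS) and 2 libraries with a METTL16 guide (METTL16 KO). METTL16 is a methyltransferase that places m6A on RNA. All cells of both groups came from a single clone that expressed Cas9, were infected with lentiviral guides and were selected with hygromycin B, so both groups rest on 1 clone. The labels give the genotypes as WT and METTL16 knockdown, do not say which METTL16 guide was used, and number the libraries 1 and 2 in each group. The methods state biological replicates for each sequenced sample and the numbers were taken as such, but the study names its guides in the same form, so the METTL16 numbers could also stand for different guides. Whether these were separate transductions is not given in the sources used here, so the p-values measure only the spread between these libraries.

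Values are given as TPM, a transcript level corrected for length and expressed as a share of a fixed library total. The depth of the libraries is unknown. Each gene was tested with limma on log2(TPM + 0.1), and a gene was called at a Benjamini-Hochberg adjusted p under 0.05 over all 11971 genes. Fold changes are METTL16 KO minus sgNS on that log2 scale. METTL16 itself read 26.3 and 25.1 TPM in the sgNS libraries against 17.6 and 18.8 TPM in the METTL16 KO libraries (log2 fold change -0.50, limma adjusted p 2.4e-05). The transcript was thus lower in both METTL16 KO libraries but still present. All 8 hepatocyte and hepatoma markers examined lay between 160.0 and 10387 TPM, while the 7 fibroblast, blood and endothelial markers reached at most 8.86 TPM. Summed, the latter stood at 8.57 to 9.79 TPM in sgNS and 13.1 to 14.6 TPM in METTL16 KO, with 4 of the 7 under 1 TPM in every library, and the part of this in the results was not tested. The median gene had a log2 fold change of 0.16, and changes are therefore also given after median-ratio scaling, which brought this median to -0.0016.

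The mean TPM of each silencing gene in METTL16 KO differed little from sgNS, from CBX3, whose mean fell by 17.7%, to PPHLN1, whose mean was 24.4% higher. TRIM28 and CBX3 fell, SETDB1 and PPHLN1 rose, and the other 6 genes did not pass the test. The largest log2 fold change among the 10 was 0.31 in size. Thus 4 of 10 genes were called, where 75.7% of all genes tested were called. Of the 10 genes 2 were lower and 2 higher, against 25.6% and 50.1% of all genes. With the thresholds the study marks in its plots, an unadjusted p under 0.01 and at least a 2-fold change, limma called 0 of the 10 genes against 11.4% of all genes. With a 1.5-fold change in its place it called 0 against 28.6%. An unadjusted limma p under 0.05 was reached by 5 of the 10, where 75.7% of all genes passed even the adjusted threshold. The median log2 fold change was 0.041 over the 10 genes and 0.16 over all genes tested, and the median size of the change, without regard to sign, was 0.10 against 0.36. Between bulk libraries, fewer cells with a transcript and less of it per cell cannot be told apart.

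**Figure D1:**
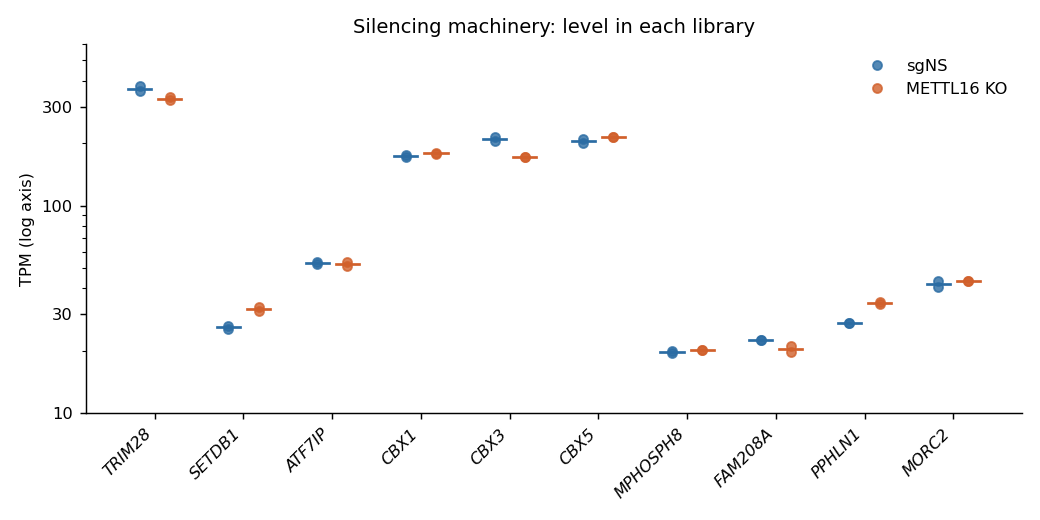
TPM (log axis) of the 10 silencing genes in each of the 2 sgNS (blue) and 2 METTL16 KO (orange) libraries, with 1 point per library and a bar at the group mean. TRIM28 is the highest gene in both groups, with group means of 365 and 327 TPM, and the shifts between the groups are small beside the differences between genes.

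The calls depended on how the libraries were scaled. After median-ratio scaling 7 of the 10 genes were called, 6 lower and 1 higher, where 73% of all genes were called, 36.5% lower and 36.4% higher. After quantile normalization 5 were lower and 1 higher, where 72.4% of all genes were called, 35.5% lower and 36.9% higher. CBX3 and TRIM28 fell and PPHLN1 rose under all 3 scalings. SETDB1 lay above 0 under all 3 and was called only on the deposited scale. Relative to the median gene, 8 of the 10 genes lay lower in METTL16 KO, and SETDB1 and PPHLN1 lay higher.

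**Figure D2:**
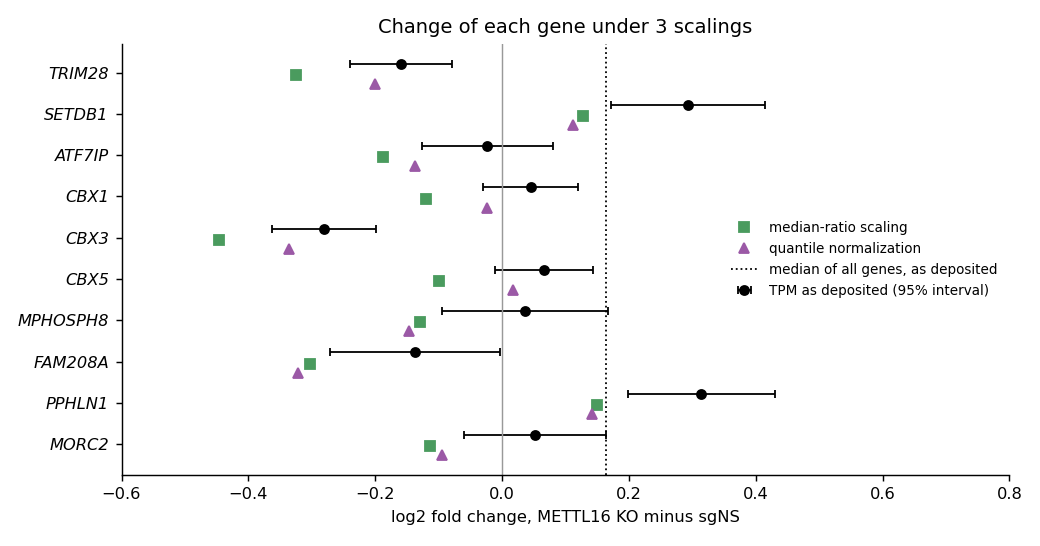
Log2 fold change (METTL16 KO minus sgNS) of each silencing gene on the deposited TPM scale (black, with 95% interval from limma), after median-ratio scaling (green) and after quantile normalization (purple). The dotted line is the median of all genes on the deposited scale, at 0.16, which only SETDB1 and PPHLN1 exceed.

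The bases just before the start of transcription are shown for SETDB1 and PPHLN1, the genes that rose, and for CBX5 and MORC2, which were not called, as a comparison. Start sites were those of GENCODE release 44 and the bases were taken from RefSeq promoter windows of GRCh38.p14. For PPHLN1 and CBX5 the whole interval up to the start of the neighbouring head-to-head gene (YAF2 or HNRNPA1) is given, and for SETDB1 and MORC2 the 150 bases upstream. Each is written 5′ to 3′ in the direction of the silencing gene, and capitals mark CACGTG (E-box), GGGCGG (GC box) and CCAAT, read on both strands. None of these matches overlap.
SETDB1, chr1:150926113-150926262, plus strand: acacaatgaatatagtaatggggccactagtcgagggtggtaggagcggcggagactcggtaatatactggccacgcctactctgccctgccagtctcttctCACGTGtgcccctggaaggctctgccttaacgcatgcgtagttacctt
PPHLN1, chr12:42238350-42238446, plus strand: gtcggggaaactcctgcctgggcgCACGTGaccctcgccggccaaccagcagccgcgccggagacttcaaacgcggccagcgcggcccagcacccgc
CBX5, chr12:54280134-54280192, minus strand: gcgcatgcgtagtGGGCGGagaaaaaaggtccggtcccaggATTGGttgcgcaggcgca
MORC2, chr22:30968775-30968924, minus strand: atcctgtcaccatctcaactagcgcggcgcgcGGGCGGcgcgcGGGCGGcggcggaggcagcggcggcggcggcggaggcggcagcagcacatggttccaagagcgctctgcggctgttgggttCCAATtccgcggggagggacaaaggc

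The regions differed in base composition and in the matches they held. G and C made up 54.7% of the SETDB1 region, 74.2% of the PPHLN1 region, 62.7% of the CBX5 region and 72.7% of the MORC2 region. CACGTG was found once in the SETDB1 and once in the PPHLN1 region, where 4.55% and 3.33% of all promoters held it within windows of 150 and 97 bases. The GC box was found 1 time in the CBX5 and 2 times in the MORC2 region, where 22.8% and 36.7% of all promoters held it within 59 and 150 bases, and each of these regions also held CCAAT, as did 9.32% and 23.5% of all promoters. The ETS letters CCGGAAG and the NRF1, YY1 and CRE motifs were searched as well and had 0 matches in the 4 regions. Within 150 bases, 6.81% of all promoters held the ETS letters. The RefSeq windows hold other start sites too, and 9 of the 10 genes had at least 1 window. Within 250 bases upstream of a RefSeq start, CACGTG was found for 2 of the 9 (SETDB1 and CBX5), against 6.32% of all promoters, and the ETS letters for 3 of the 9 (SETDB1, CBX3 and PPHLN1), against 8.48%. The GC box was found for 6 of the 9, against 42.5%, and CCAAT for 5 of the 9, against 32%. A gene counted if any of its windows held the letters, while these shares are over single promoters. ATF7IP had 6 windows, of which 1 held the GC box. Genes with several windows had more room for a match, so the counts and the shares are not like for like. The PPHLN1 region printed above was read from the window of YAF2, since the RefSeq starts of PPHLN1 lie further inside the gene and their windows hold no CACGTG. Which start the Huh7 cells used was not measured. These matches describe letters and not binding.

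TRIM28, on the plus strand of chromosome 19 from 58544064 to 58550722, was the most abundant gene of the machinery and lay above 96.5% of the genes tested in level. The sgNS libraries held 375 and 356 TPM and the METTL16 KO libraries 333 and 321 TPM. The groups did not overlap. The mean fell by 10.5%, from 365 ± 13.9 to 327 ± 8.7 TPM (SD, n = 2 per group), which limma put at -0.16 on the log2 scale (standard error 0.036, adjusted p 0.0020). Median-ratio scaling moved this to -0.33. The call rested on METTL16 KO replicate 2, without which limma gave -0.13 and an adjusted p of 0.054.

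SETDB1, the methyltransferase that TRIM28 recruits, moved the other way. It lies on chromosome 1 from 150926263 to 150964744 on the plus strand. Its level was 26.4 and 25.5 TPM with the non-targeting guide and 31.2 and 32.4 TPM with the METTL16 guide. Both METTL16 KO libraries were higher, and the mean was 22.6% above that of sgNS. In limma this was 0.29 on the log2 scale (standard error 0.055, adjusted p 5.3e-04). The rise did not pass once libraries were rescaled, at 0.13 by median ratios (adjusted p 0.053) and at 0.11 by quantiles (adjusted p 0.086). The 3′ end of SETDB1 overlaps that of CERS2 on the other strand over 4162 bases. CERS2, a ceramide synthase named here after its values were seen, rose by 0.29 on the log2 scale as well. It was expressed far above SETDB1, at 414 TPM in sgNS and 506 TPM in METTL16 KO on average. Whether the counting used strand is not stated, so reads of such overlapping genes may not be told apart.

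ATF7IP, the partner that stabilises SETDB1, stood at 53.5 and 52.3 TPM in sgNS against 53.3 and 50.9 TPM in METTL16 KO. It was the only gene of the 10 whose groups overlapped, and 87.4% of all genes tested had groups that did not overlap. Its log2 fold change was -0.023, with a 95% interval from -0.13 to 0.081. By median ratios it was -0.19 and passed (limma adjusted p 0.0037), as it did by quantiles at -0.14 (adjusted p 0.023). The ratio of ATF7IP to SETDB1, which a common scaling factor leaves as it is, was 2.02 and 2.05 in sgNS and 1.70 and 1.57 in METTL16 KO. SETDB1 thus gained on its partner in both METTL16 KO libraries.

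The ratio of TRIM28 to SETDB1 was likewise lower in both METTL16 KO libraries. It was 14.2 and 13.9 in sgNS and 10.7 and 9.89 in METTL16 KO, or 0.73 times the sgNS mean. With 2 against 2 libraries, exact two-sided permutation of any single ratio yields a p of at least 0.33, which is what every ratio given here had, so the ratios are descriptions.

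CBX3, which encodes HP1 gamma, had the largest fall of the machinery. It lies on chromosome 7 from 26201162 to 26213607 on the plus strand. Its 204 and 214 TPM in sgNS compared with 172 TPM in each METTL16 KO library. The groups did not overlap, and the mean fell by 17.7%. In limma this was -0.28 on the log2 scale (standard error 0.037, adjusted p 4.0e-05), and it was -0.45 by median ratios and -0.34 by quantiles. CBX3 was lower and called under each of the 13 alternative settings run for it. The annotation lists 10 pseudogenes of CBX3 by name, none of which is in the table, so reads could be shared between the gene and its copies. The 5′ end of CBX3 also overlaps HNRNPA2B1 on the other strand over 368 bases, so the limit on strand applies.

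The other HP1 genes did not fall on the deposited scale. CBX1 (HP1 beta) had 174 and 172 TPM in sgNS against 178 and 179 TPM in METTL16 KO. CBX5 (HP1 alpha) had 208 and 201 TPM against 214 TPM in each library. For both genes the METTL16 KO libraries were slightly the higher. Neither was called, with log2 fold changes of 0.045 (95% interval -0.031 to 0.12) for CBX1 and 0.066 (95% interval -0.011 to 0.14) for CBX5. Median-ratio scaling put both below 0, at -0.12 and -0.10, with adjusted p-values of 0.0086 and 0.023 in limma, while quantile normalization left CBX1 at -0.023 and CBX5 at 0.016, uncalled. Without sgNS replicate 1, CBX5 was called higher on the deposited scale, at 0.093 on the log2 scale (limma adjusted p 0.030). Pseudogenes of CBX1 (5) and CBX5 (1) are annotated as well.

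CBX3 held a smaller share of the HP1 transcripts in both METTL16 KO libraries. CBX3 made up 34.7% and 36.5% of the summed HP1 TPM in sgNS and 30.6% and 30.4% in METTL16 KO, a difference of -5.17 percentage points. CBX1 went from 29.7% and 29.3% to 31.5% and 31.7%, and CBX5 from 35.5% and 34.2% to 37.9% in each library. In all 3 shares the groups did not overlap, and a common scaling factor leaves the shares as they are. The ratio of CBX5 to CBX1 was nearly constant, at 1.20 and 1.17 in sgNS and 1.20 and 1.20 in METTL16 KO. Its groups did not overlap either, so groups that stay apart do not by themselves mark a large change. The sum of the HP1 genes was 586 and 587 TPM in sgNS and 564 and 565 TPM in METTL16 KO.

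**Figure D3:**
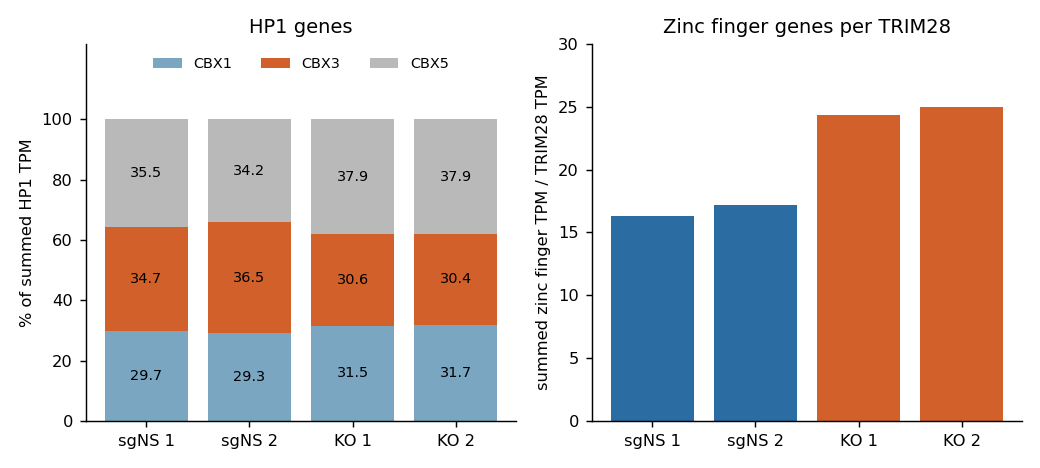
Left, the percentage of the summed TPM of CBX1, CBX3 and CBX5 that each gene contributed in each library (KO, METTL16 KO). Right, the summed TPM of the zinc finger genes divided by the TPM of TRIM28 in each library. The CBX3 share is about 5 points lower in both METTL16 KO libraries, and the zinc finger ratio goes from 16.3 and 17.2 to 24.4 and 24.97.

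Of the HUSH subunits, PPHLN1 was called on the deposited scale and FAM208A and MPHOSPH8 were not; differences between subunits were not tested. PPHLN1, the RNA-binding subunit, lies on chromosome 12 from 42238447 to 42459715 on the plus strand. Its 27.4 and 27.3 TPM in sgNS compared with 33.4 and 34.5 TPM in METTL16 KO. This was the largest rise of the machinery, by 24.4%, or 0.31 on the log2 scale in limma (standard error 0.052, adjusted p 2.3e-04). It was 0.15 by median ratios and 0.14 by quantiles and was called under each of the 13 alternative settings run for it. The span of PPHLN1 also overlaps genes on the other strand, ZCRB1 over 14172 bases and PRICKLE1 over 2959 bases. ZCRB1, at 69.1 TPM in sgNS and 74.2 TPM in METTL16 KO on average, is expressed above PPHLN1, so the limit on strand holds here as well.
FAM208A, the scaffold of HUSH, had 22.6 and 22.5 TPM in sgNS against 21.2 and 19.8 TPM in METTL16 KO. Both METTL16 KO libraries were lower, but the gene missed the threshold, at -0.14 on the log2 scale (95% interval -0.27 to -0.0035, limma adjusted p 0.059). It passed after median-ratio scaling, at -0.30, and after quantile normalization, at -0.32, with adjusted p-values of 9.5e-04 and 9.9e-04. Its 3′ end overlaps CCDC66 over 1706 bases on the other strand, and CCDC66, also named after its values were seen, rose by 0.79 on the log2 scale.
MPHOSPH8, the chromodomain subunit, had 19.9 and 19.4 TPM in sgNS against 20.1 and 20.3 TPM in METTL16 KO, so the groups were apart by a small margin. Its log2 fold change of 0.036 (95% interval -0.094 to 0.17) was not called, and it lay at -0.13 after median-ratio scaling (adjusted p 0.066) and at -0.15 after quantile normalization (adjusted p 0.039).
MORC2, the ATPase that acts with HUSH, had 43.2 and 40.6 TPM in sgNS against 43.5 and 43.3 TPM in METTL16 KO, with the lower METTL16 KO library just above the higher sgNS library. It was called on no scale, with log2 fold changes of 0.052 as deposited (95% interval -0.060 to 0.16), -0.11 by median ratios (adjusted p 0.059) and -0.095 by quantiles (adjusted p 0.10).

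PPHLN1 was higher relative to the other HUSH transcripts in both METTL16 KO libraries. There were 1.21 PPHLN1 transcripts per FAM208A transcript in each sgNS library and 1.58 and 1.74 in the METTL16 KO libraries. The ratio of PPHLN1 to MPHOSPH8 went from 1.37 and 1.40 to 1.67 and 1.70, and that of FAM208A to MPHOSPH8 from 1.13 and 1.16 to 1.06 and 0.98. In none of these ratios did the groups overlap, which was also so for the nearly constant ratio of CBX5 to CBX1.

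The order of levels was alike in both groups, from TRIM28 over the HP1 genes, ATF7IP and MORC2 to PPHLN1, SETDB1 and FAM208A, with MPHOSPH8 last. In sgNS, CBX3 and CBX5 stood next to each other with overlapping libraries, at 209 and 204 TPM on average. In METTL16 KO, CBX3 had dropped to the lowest HP1 gene, just below CBX1, at 172 against 179 TPM. FAM208A and MPHOSPH8 overlapped there, at 20.5 and 20.2 TPM, while in sgNS FAM208A lay 1.15 times higher. ATF7IP stood above its partner SETDB1 in both groups, at 52.9 against 26.0 TPM on average in sgNS.

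The genes around the silencing genes were compared next, since 2 of the 10 share their start with another tested gene. CBX3 overlaps HNRNPA2B1, a splicing and RNA-transport factor that is read in the opposite direction from a start 367 bases away. HNRNPA2B1 fell from 561 to 444 TPM on average, or by 0.34 on the log2 scale (limma adjusted p 1.7e-06), so both genes of this pair were lower. The pair overlaps over 368 bases and HNRNPA2B1 is expressed above CBX3, so the limit on strand holds here as well. By the GENCODE start of PPHLN1, it and YAF2, a partner of Polycomb complexes, start 98 bases apart. YAF2 was at 5.83 TPM in sgNS and 6.82 TPM in METTL16 KO on average, with a log2 fold change of 0.22 that was not called (adjusted p 0.078). The partners HNRNPA1 and TUG1 were not analysed here.
Of 33 genes tested within 100 kb of a silencing gene, 10 were lower and 16 higher, where 25.6% of all genes were lower and 50.1% higher. The median log2 fold change of these neighbours was 0.10, against 0.16 for all genes. Around TRIM28, 3 of 7 were lower and 2 higher, and around CBX3 2 of 3 were lower. The genes with the largest fall and the largest rise near any member were MLLT11, near SETDB1, at -1.21, and ZNF385A, near CBX5, at 1.47.

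**Figure D4:**
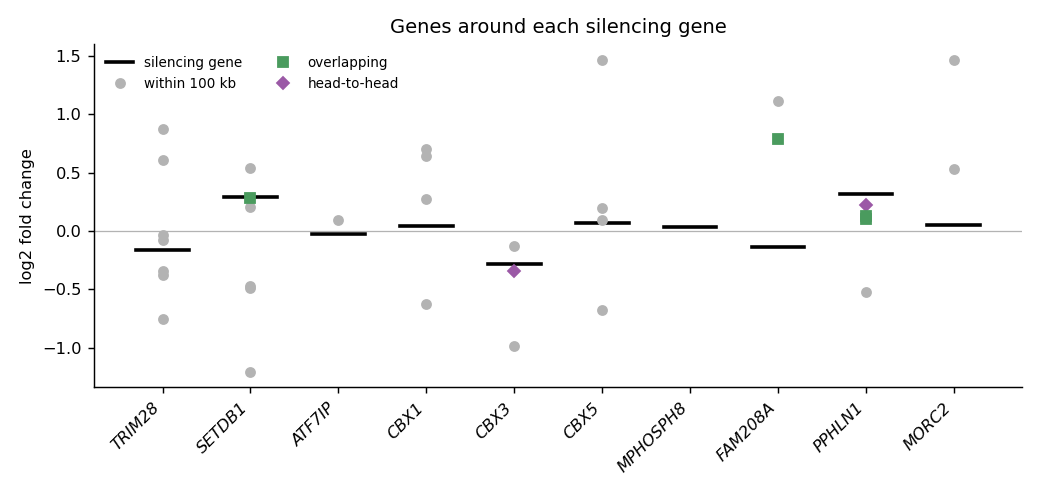
Log2 fold change (METTL16 KO minus sgNS) of each silencing gene (black bar) and of the 33 tested genes within 100 kb of it, with head-to-head genes as purple diamonds, overlapping genes as green squares and others in grey. HNRNPA2B1 lies just below CBX3, at -0.34 against -0.28, and the neighbours range from -1.21 to 1.47.

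Next, the cofactors were set against the zinc finger genes. These were found by symbol, 498 in all, and include genes without a KRAB domain, whose products are not known to use TRIM28. Of the 427 tested, 293 were higher and 24 lower, where 50.1% of all genes were higher and 25.6% lower. After median-ratio scaling 232 were higher and 55 lower, against 36.4% and 36.5% of all genes. The 498 zinc finger genes had a summed level of 6135 and 6104 TPM in sgNS and 8119 and 8012 TPM in METTL16 KO. The zinc finger TPM per TRIM28 TPM was 16.3 and 17.2 in sgNS and 24.4 and 24.97 in METTL16 KO, 1.47 times the sgNS mean. Per SETDB1 TPM, the sum was 232 and 239 in sgNS and 260 and 247 in METTL16 KO, only 1.08 times the sgNS mean. The groups did not overlap in either ratio. Of 11 KRAB proteins with known repeat, imprint or zinc finger gene targets that were tested, 7 rose and 1 fell, where 50.1% of all genes were higher and 25.6% lower. After median-ratio scaling 6 were higher and 2 lower, against 36.4% and 36.5% of all genes. ZNF274, which recruits SETDB1 to the ends of zinc finger genes, rose by 0.27 on the log2 scale, a call lost by median ratios (0.10, limma adjusted p 0.063). ZNF445, which guards imprints, rose by 0.42, while ZNF91, a repressor of SVA and L1 elements, fell by 0.57.

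The relatives of HUSH, MORC2 and ATF7IP rose where the silencing genes themselves changed little. All 7 of those tested were called higher, where 50.1% of all genes were. Their median log2 fold change was 0.45, against 0.16 for all genes. After median-ratio scaling 6 of the 7 were called higher, against 36.4% of all genes. The unmoderated linear model called 5 higher, against 33.8% of all genes. KIAA1551 (RESF1), which binds SETDB1, rose by 0.97. ATF7IP2 rose from 9.38 and 10.4 to 16.0 and 15.9 TPM, while its paralog ATF7IP was not called. FAM208B (TASOR2), the paralog of FAM208A, rose from 28.2 TPM in each sgNS library to 43.9 and 42.3 TPM, and MORC3 and MORC4 rose by 0.45 and 0.37. CDYL was not analysed here, and MORC1 was listed at 0 in all 4 libraries.

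The other enzymes of H3K9 methylation were mixed. Of 7 methyltransferases and partners tested, 4 were higher and 1 lower. Over all genes, 50.1% were higher and 25.6% lower, or 36.4% and 36.5% after median-ratio scaling. SUV39H1 rose by 0.29 and its paralog SUV39H2 fell by 0.28, and both calls held under either rescaling. EHMT1 rose by 0.23, a call lost by median ratios (0.062, limma adjusted p 0.26) and by quantiles (0.10, adjusted p 0.077). SETDB2, the paralog of SETDB1, had a log2 fold change of -0.25 that was not called (limma adjusted p 0.14), and was called lower by median ratios (-0.41, adjusted p 0.023). PRDM2 rose by 1.39 from under 1 TPM in both sgNS libraries, so it passed the filter only through METTL16 KO. WIZ, a zinc finger partner of EHMT1, rose by 0.64. With a mean of at least 5 TPM required, which drops genes, 3 were higher, against 52.1% of all genes. After median-ratio scaling 3 were higher and 3 lower, and without sgNS replicate 1 there were 2 lower genes. Of 11 H3K9 demethylases, 4 rose, with KDM4A at 0.63, and 3 fell, with KDM1A at -0.57 and KDM4D at -0.67.
DNA methylation works beside H3K9 methylation in silencing. The 7 genes listed for it include TET1, TET2 and TET3, which act in removing DNA methylation. Of the 7, 4 rose and 2 fell, where 50.1% of all genes rose and 25.6% fell. Median-ratio scaling left these counts of 4 and 2 as they were, where 36.4% of all genes were then higher and 36.5% lower. The de novo methyltransferases DNMT3A and DNMT3B rose by 0.60 and 0.73. Of the genes that act in removal, TET3 rose by 0.58 and TET1 fell by 0.41. UHRF1, which guides DNMT1 to replicating DNA, fell by 0.65, and DNMT1 itself had a log2 fold change of 0.10 and was not called (adjusted p 0.062).

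Among the TRIM relatives, the NuRD subunits and the chromatin assembly factors, 9 of 19 genes fell and 7 rose. Over all genes, 25.6% fell and 50.1% rose, or 36.5% and 36.4% after median-ratio scaling. TRIM24, a relative of TRIM28, fell by 0.18. TRIM33 rose by 0.27, a call lost by median ratios (0.11, limma adjusted p 0.18) and by quantiles (0.10, adjusted p 0.21). The NuRD subunits RBBP7 and MTA3 fell by 0.78 and 0.71, as did CHAF1B, a subunit of the chromatin assembly factor, by 0.78, while GATAD2A rose by 0.48. After median-ratio scaling 10 were lower and 1 higher, and without METTL16 KO replicate 1 the 7 rises became 4. Of the 17 genes of the SUMO pathway, which links TRIM28 to SETDB1, 8 rose and 3 fell, and after median-ratio scaling 5 were higher and 6 lower. These counts lay near the shares over all genes. SUMO2 fell by 0.20 and PIAS3 by 1.04, while the SUMO protease SENP3 rose by 0.39.

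**Figure D5:**
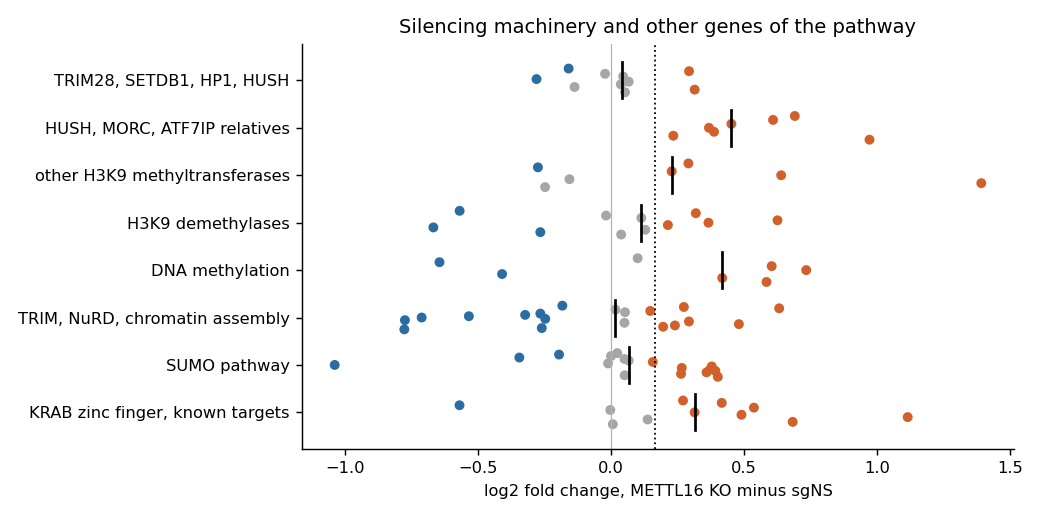
Log2 fold change (METTL16 KO minus sgNS) of the genes tested in the silencing machinery and in 7 other lists of the pathway, 1 point per gene, orange for genes called higher, blue for genes called lower and grey for others. Black bars are list medians and the dotted line is the median of all genes, 0.16; the silencing genes lie in a narrow band, while the HUSH, MORC and ATF7IP relatives are all orange.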

How the data were processed

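Gene-level TPM values of 4 Huh7 libraries were used as the authors deposited them. Reads from mRNA libraries (Ribozero, in another label) had been trimmed (Cutadapt), aligned to GRCh38 by STAR and summarised by RSEM; versions, annotation and strand setting are not given in the sources used here. Although RPKM is the unit named in the methods, every library adds up to 1000000, which is a property of TPM. Such values keep no counts, so counting error is unknown.

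From these, log2(TPM + 0.1) was fitted with limma 3.58.1 in R 4.3.3 (lmFit, eBayes with trend, no block) for 11971 genes whose mean reached 1 TPM, after tests on simulated data. The silencing genes, the lists and the tests were chosen with earlier results of these data known. From each list, up to 3 called genes with the largest rise and 3 with the largest fall could be named, beside relatives of the silencing genes, head-to-head partners and the neighbours with the largest rise and fall. Permutation tests used scipy 1.17.1, and genes were placed by GENCODE release 44.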

Additional observations from a re-analysis of the deposited data

How the results depend on the processing

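Against 2 lower and 2 higher silencing genes, median-ratio scaling gave 6 and 1, quantile normalization 5 and 1, and the unmoderated linear model 1 lower, with TRIM28 at an adjusted p of 0.11. Leaving out a library gave 1 to 2 lower and 2 to 3 higher genes. The median over the 10 genes, 0.041, became -0.12 by median ratios and -0.12 by quantiles, and ran from 0.013 (without sgNS replicate 2) to 0.054 (without sgNS replicate 1) with a library left out. Values changed sign by median ratios for CBX1 (-0.12), CBX5 (-0.10), MPHOSPH8 (-0.13) and MORC2 (-0.11), and by quantiles for CBX1 (-0.023), MPHOSPH8 (-0.15) and MORC2 (-0.095). ATF7IP ran from -0.055 to 0.0093 with a library left out, above 0 only without METTL16 KO replicate 2. These scalings shift the all-gene median by construction, and the cause of the other changes was not tested. Other pseudocounts (1 and 0.01), other filters (any gene above 0, a mean of 5 TPM) and limma without trend left both counts of called genes at 2. The CBX3 share of HP1 TPM differed by -6.08 to -4.27 points and the zinc finger ratio by 7.51 to 8.32 with a library left out.

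The groups share replicate numbers, but deviations of same-numbered libraries had a correlation of -0.044 across genes, so the numbers were not taken to pair them. With the replicate block, 2 silencing genes were lower and 2 higher, as without it. METTL16 was called lower under each of its 13 alternatives.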

Other observations

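The imprinted genes and the clustered protocadherins examined did not share a direction. Of 20 imprinted genes in the table, 11 were tested, and 8 were higher and 2 lower, where 50.1% of all genes were higher and 25.6% lower. Their median log2 fold change was 0.48, against 0.16 for all genes. PHLDA2 rose by 1.94 and GRB10, which restrains growth factor signalling, by 1.46, while GNAS fell by 0.52 and IGF2R by 0.46. Of 53 clustered protocadherin genes, a family that SETDB1 helps to regulate, 21 were tested, and 13 fell and 1 rose, with a median of -0.41. The same shares of all genes apply. The unmoderated linear model called 7 lower, against 16.3% of all genes. With a mean of at least 5 TPM required, which drops genes, 8 were lower, against 26.7%. PCDHGA10 fell by 1.21 and PCDHB5 by 0.95, and PCDHB4 rose by 0.52, a call that median-ratio scaling removed. Many of these genes are similar in sequence, so reads could be shared between them.

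Genes derived from retroelements were sparse. Only 2 of 6 genes were tested. ERV3-1 fell by 0.98, and ERVMER34-1, with 6.27 and 6.77 TPM in sgNS against 6.81 and 7.55 TPM in METTL16 KO, was not called. The other 4 lay below the filter of 1 TPM. ERVFRD-1 had 0.16 and 0.07 TPM in sgNS against 0.68 and 0.44 TPM in METTL16 KO, and ERVH48-1 had 0.22 and 0.10 TPM against 0.28 and 0.38 TPM. For ERVW-1 the METTL16 KO libraries held 0.09 and 0.19 TPM, where each sgNS library is listed at 0, and L1TD1 stood at 0.01 TPM in 1 sgNS library and at 0 in the others. With all genes above 0 tested, limma called 2 of these genes higher and 1 lower, so the counts depended on the filter. In that setting 39.8% of all genes were higher and 18.2% lower. Of 10 sensors of foreign RNA and DNA that were tested, 9 rose and 0 were lower, where 50.1% of all genes were higher and 25.6% lower. Their median was 0.68. After median-ratio scaling 8 were higher and 1 lower, against 36.4% and 36.5% of all genes. The unmoderated linear model called 5 higher, against 33.8% of all genes. With a mean of at least 5 TPM required, which drops genes near the floor, 5 were higher as well, against 52.1%. IFIH1, which senses double-stranded RNA, had 0.35 and 0.36 TPM in sgNS against 2.90 and 2.80 TPM in METTL16 KO, and TLR3 rose by 2.21. IFIH1, TLR3 and TMEM173 lay under 1 TPM in both sgNS libraries, so they passed the filter only through METTL16 KO. Transcripts of the repeats themselves were not analysed here.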
